A study of Mus musculus with 69 samples.

Results

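The 4 genes described here are Lhb, Fshb, Cga and Gnrhr, taken by name from the 55964 gene IDs of the count tables. Lhb and Fshb encode the beta subunits that give luteinising hormone (LH) and follicle-stimulating hormone (FSH) their identity, Cga encodes the alpha subunit that both hormones share, and Gnrhr encodes the receptor through which gonadotropes receive gonadotropin-releasing hormone (GnRH). They were followed in the pituitaries, hypothalami and ovaries of female C57BL/6J mice of 3 genotypes, by RNA-seq of 69 libraries. Zeb1 is unaltered in WT mice, whereas Zeb1_200H and Zeb1_200M mice carry 1 or 2 Zeb1 alleles whose 3′ UTR no longer holds the sites for miR-200a and miR-200b. The young females were virgins of 8 to 12 weeks and the older females were 28 to 36 weeks old and came from a breeding trial, and all were staged to proestrus. Each of the 18 groups of tissue, cohort and genotype had 4 libraries, apart from young WT pituitary, older Zeb1_200M pituitary and older Zeb1_200M hypothalamus with 3 each. The allele is a knock-in made through embryonic stem cells and present in every cell, so no comparison tells in which cell type it acts. The cohorts also differed in breeding history, library chemistry and read counting, which cannot be told apart from age, so that genotypes were compared within a cohort. The study reports that most Zeb1_200M females had no litter in the breeding trial. Within the older cohort, the Zeb1_200M genotype and litter history therefore cannot be told apart.

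Gonadotropes are the pituitary cells that make LH and FSH. Pulses of GnRH from hypothalamic neurons reach them through the pituitary portal blood, activate the GnRH receptor and, through G proteins, calcium, protein kinase C and MAP kinases, induce transcription factors such as EGR1. EGR1, NR5A1 and PITX1 act together at the Lhb promoter, whereas activin signalling through SMAD proteins is the main drive of Fshb. The alpha subunit is made in excess, and is also made by thyrotropes, where it pairs with TSHB to form thyrotropin. During proestrus a GnRH surge releases the LH that triggers ovulation. ZEB1 is a zinc finger repressor that binds E-boxes of the form CAGGTA or CAGGTG, and miR-200 lowers its mRNA.

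The sequences that miR-200 and ZEB1 are known to read come first, because Zeb1 is the only gene altered by design. The miR-200 family has 2 seeds (bases 2 to 8, in capitals), which differ at 1 base. RefSeq lists these mature forms (GRCm38.p6), grouped by seed.
miR-200b-3p: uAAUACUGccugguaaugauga
miR-200c-3p: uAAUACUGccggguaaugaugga
miR-429-3p: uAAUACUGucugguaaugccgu
miR-200a-3p: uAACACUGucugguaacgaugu
miR-141-3p: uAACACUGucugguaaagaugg
No annotated 3′ UTR of the 4 genes held a 7mer match to either seed. Their 3′ UTRs are up to 119 nt for Lhb, 1140 nt for Fshb, 227 nt for Cga and 1655 nt for Gnrhr. Over 20831 genes with an annotated 3′ UTR, 14.1% held a match to the AAUACUG seed and 18.2% a match to the AACACUG seed.

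The promoters, taken as 250 bases before to 50 bases after the RefSeq start site, were searched on both strands for the E-boxes CAGGTA and CAGGTG, for the NR5A1 motif CAAGGNCA, for the bicoid motif TAATCC that PITX1 recognises, and for the EGR1 motif GCGNGGGCG. Lhb held 4 E-boxes, and 61 of 32851 promoters (0.186%), Lhb included, held at least as many. Fshb held 1, with at least as many in 29.5% of promoters, and Cga and Gnrhr held 0. The 4 E-box windows of Lhb are shown with the motif in capitals, named by the position of its first base relative to the start. The windows at 35 and 23 bases before the start overlap, and the one at 188 bases before holds its E-box on the opposite strand.
Lhb 188 before (chr7:45420746-45420775, +): gctaagccctgaCACCTGggccgagtgtga
Lhb 35 before (chr7:45420899-45420928, +): ccccacaacccgCAGGTAtaaagccaggtg
Lhb 23 before (chr7:45420911-45420940, +): caggtataaagcCAGGTGcccaaggtaggg
Lhb 19 after (chr7:45420953-45420982, +): atggagaggctcCAGGTAagatggtagggc
Fshb 34 after (chr2:107059602-107059629, -): cagctgactgcaCAGGTGagtagcagca
CAGGTA occurred in 12.0% and CAGGTG in 20.2% of all promoters. Lhb also held 2 matches to the NR5A1 motif and Cga held 1, all on the strand opposite to the gene, against 6.71% of promoters with any. They are shown in the same way, since NR5A1 was itself among the genes that changed.
Lhb NR5A1 129 before (chr7:45420806-45420835, +): cctggcttcccTGACCTTGtctgtgtctcg
Lhb NR5A1 59 before (chr7:45420876-45420905, +): ccactacttagTGGCCTTGccacccccaca
Cga NR5A1 215 before (chr4:34893553-34893582, +): tcttcataagcTGTCCTTGaggtcaccact
TAATCC, found in 7.06% of promoters, and the EGR1 motif, found in 5.55%, were in none of the 4 promoters in these exact letters. A match of letters is a description of the window and not a bound site.

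On GRCm38 the annotation (GENCODE M21) places Lhb (ENSMUSG00000100916) at chr7:45420820-45421897 on the plus strand with 678 exonic bases in 3 exons. Of these, 138 bases (20.4%) are also exonic in Ruvbl2 on the other strand. The RefSeq start used above lies downstream of the first base of this model. Cga (ENSMUSG00000028298) lies at chr4:34893779-34907370 on the plus strand with 954 exonic bases, of which 305 (32.0%) are shared with Platr9 on the other strand. Fshb (ENSMUSG00000027120, chr2:107056140-107059656, minus strand, 1600 exonic bases) and Gnrhr (ENSMUSG00000029255, chr5:86180754-86197901, minus strand, 3197 exonic bases) share none. Reads were counted by strand in the young cohort. They were counted without strand in the older cohort, where a read in a shared stretch is not assigned to either gene, so levels per length use 540 bases for Lhb and 649 bases for Cga there.

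Total counts ran from 7.56e6 to 13.34e6 per library in young pituitary and from 4.53e6 to 12.96e6 in older pituitary, and from 3.32e6 to 14.66e6 over the hypothalamus and ovary libraries. Per the study's methods, each replicate was a different mouse, so p-values measure the spread between animals together with that of library making. No 2 libraries of a group were copies, the lowest chi-square per degree of freedom between their counts being 1.92. Zeb1 itself rose in the pituitary in both mutant genotypes. Its level was 93.9 to 98.5 CPM (counts per 1e+06 counts, with TMM scaling) in young WT, 127 to 136 in Zeb1_200H and 133 to 145 in Zeb1_200M. In the older cohort it was 54.9 to 62.0, 70.2 to 76.1 and 79.6 to 91.6 CPM, so that no group with altered alleles overlapped WT. Prl, the prolactin gene, made up 12.5% to 14.5% of all counts in young WT pituitary and 3.06% to 6.17% in the mutants, and 15.8% to 19.5% and 5.67% to 11.9% in the older cohort. Levels relative to a library total depend on so abundant a gene. With raw library totals in place of TMM, the median log2 fold change of all genes moved to 0.12 and 0.16 for young and older Zeb1_200M and to 0.13 and 0.16 for Zeb1_200H, and the raised share of called genes went from 53.5% to 76.8% and from 54.4% to 84.0% in Zeb1_200M, and from 53.4% to 79.6% and from 58.0% to 87.1% in Zeb1_200H. The pituitary libraries were checked by 6 hormone genes, Prl, Gh, Pomc, Lhb, Fshb and Tshb, each of which was above 0 in every pituitary library.

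**Figure D1:**
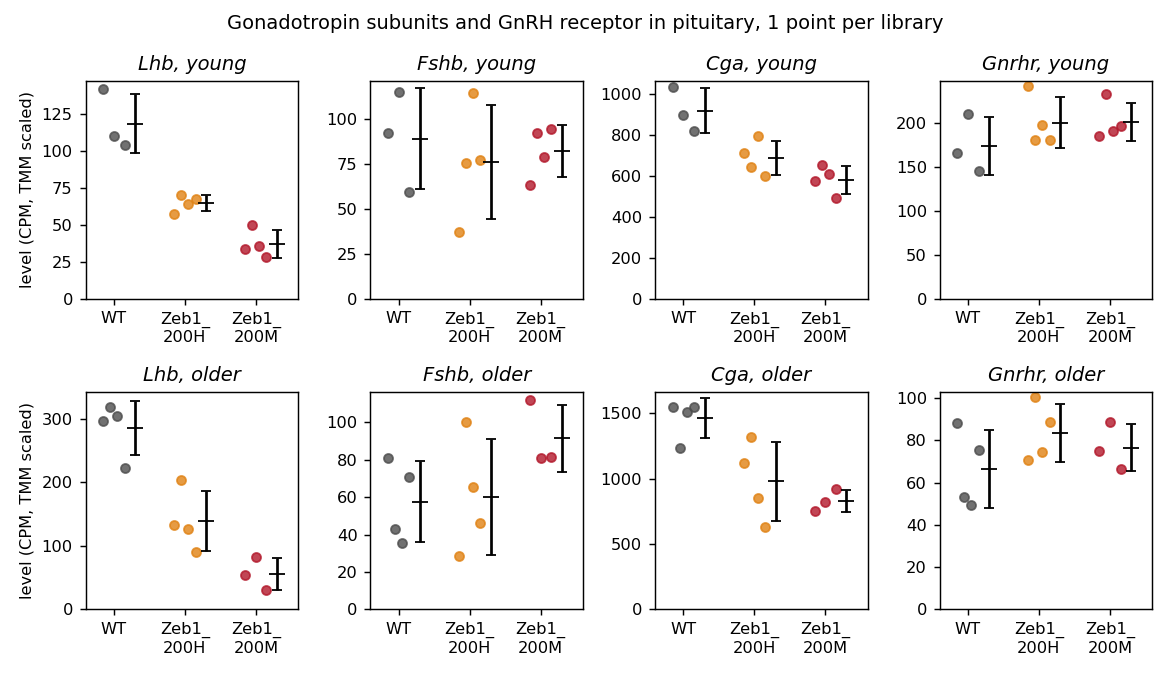
Level of each gene (CPM, TMM scaled, vertical axis from 0) in WT, Zeb1_200H and Zeb1_200M pituitary, with 1 point per library and the mean ± SD beside it, young cohort above and older cohort below. Lhb falls in steps with no overlap between genotypes, from 118.5 to 64.8 and 36.8 CPM in young and from 285 to 138 and 55.7 CPM in older mice. The Gnrhr points of the 3 genotypes overlap, as do the Fshb points in young mice. In older mice the lowest Fshb point of Zeb1_200M (80.92 CPM) lies just above the highest of WT (80.86 CPM), and Zeb1_200H overlaps both.

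Per kilobase of exon, Cga was the most abundant of the 4 in every group and Lhb came next in every group but young Zeb1_200M. In young WT pituitary Cga stood at 963 ± 114 CPM per kb (SD, n = 3). Lhb followed at 175 ± 29.8, and Fshb (55.6 ± 17.5) and Gnrhr (54.5 ± 10.5) lay within their spread of each other. In young Zeb1_200M pituitary Cga stood at 610 ± 71.8 CPM per kb (SD, n = 4). There Gnrhr (63.1 ± 6.73), Lhb (54.3 ± 13.8) and Fshb (51.4 ± 9.03) were not separated beyond their spread. In older WT pituitary the order was Cga at 2250 ± 236 CPM per kb, Lhb at 528 ± 78.5, Fshb at 35.9 ± 13.6 and Gnrhr at 20.8 ± 5.78 (SD, n = 4), the last pair overlapping. In older Zeb1_200M pituitary it was Cga at 1278 ± 126, Lhb at 103 ± 47.6, Fshb at 57.2 ± 11.2 and Gnrhr at 23.95 ± 3.51 (SD, n = 3). Lhb and Fshb overlapped there.

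Lhb, the subunit specific to LH, was lowest in Zeb1_200M pituitaries and intermediate in Zeb1_200H pituitaries in both cohorts. In young mice its level was 142, 110.2 and 104 CPM in the 3 WT libraries. The 4 Zeb1_200H libraries stood at 57.6, 70.3, 64.1 and 67.3 CPM, and the 4 Zeb1_200M libraries at 33.5, 50.03, 35.8 and 28.1 CPM. All 3 groups were separate, every Zeb1_200M library lying below every Zeb1_200H library and these below every WT library. Relative to WT, Lhb was 3.21-fold lower in Zeb1_200M (log2 fold change -1.69, SE 0.14, edgeR adjusted p = 1.31e-06) and 1.84-fold lower in Zeb1_200H (log2 fold change -0.88, SE 0.11, edgeR adjusted p = 0.000163). In these young pituitaries 2 of the 4 genes, Lhb and Cga, were called in Zeb1_200M against WT, where 21.5% of all genes tested were called. The same pair was called in Zeb1_200H against WT, with 12.3% of all genes called. The other 2 of the 4 genes, Fshb (log2 fold change -0.12) and Gnrhr (0.20), were not called in young Zeb1_200M against WT. Bulk tissue does not measure gonadotrope number and mRNA per gonadotrope apart, and the part of each was not tested.

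In the older cohort the Lhb level was 296, 317, 304 and 223 CPM in WT, 133, 203, 127 and 90.7 CPM in Zeb1_200H and 54.2, 82.1 and 30.7 CPM in Zeb1_200M. Again no group overlapped another, although the lowest Zeb1_200H library and the highest Zeb1_200M library lay close together. Lhb was 5.03-fold lower in Zeb1_200M than in WT (log2 fold change -2.33, SE 0.25, edgeR adjusted p = 4.51e-05) and 2.05-fold lower in Zeb1_200H (log2 fold change -1.04, SE 0.20, edgeR adjusted p = 0.00501). Among the 4 genes, Lhb and Cga were called in older Zeb1_200M, where 21.4% of all genes were called, and Lhb alone in older Zeb1_200H, where 12.2% were. The fall of Lhb against WT passed the threshold under every scaling, filter and tool tried and with any 1 library left out.

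Cga, the subunit common to LH, FSH and thyrotropin, fell in the same genotypes by less. In young pituitary its level was 1036, 900, and 821 CPM in WT, 714, 644, 794 and 600.4 CPM in Zeb1_200H and 574, 652, 612 and 491 CPM in Zeb1_200M. Every WT library lay above every mutant library, and the Zeb1_200H and Zeb1_200M libraries overlapped. Cga was 1.59-fold lower in Zeb1_200M (log2 fold change -0.67, SE 0.08, edgeR adjusted p = 3.72e-05) and 1.34-fold lower in Zeb1_200H (log2 fold change -0.43, SE 0.09, edgeR adjusted p = 0.00817). The Zeb1_200H call was lost in edgeR with raw library totals, where the adjusted p was 0.0598. It was also lost when WT replicate 1 was left out (edgeR adjusted p = 0.0565). In older pituitary the Cga level was 1549, 1232, 1511 and 1549 CPM in WT, 1122, 1314, 850 and 627 CPM in Zeb1_200H and 754, 817 and 916 CPM in Zeb1_200M. The Zeb1_200M libraries lay below all WT libraries, and 1 of the Zeb1_200H libraries reached into the WT range. Cga was 1.75-fold lower in older Zeb1_200M (log2 fold change -0.81, SE 0.11, edgeR adjusted p = 0.000322). In older Zeb1_200H the log2 fold change was -0.58 (95% interval -0.98 to -0.17) and missed the threshold in edgeR (adjusted p = 0.0655), but passed it in DESeq2 (adjusted p = 0.0158) and, in edgeR, with all 3 genotypes in one fit (adjusted p = 0.0348) or without Zeb1_200H replicate 2 (adjusted p = 0.0147).

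Fshb, the subunit specific to FSH, was not called in any pairwise comparison of genotypes. In young pituitary its level was 92.3, 115 and 59.4 CPM in WT, 36.8, 75.7, 114 and 77.0 CPM in Zeb1_200H and 63.2, 92.2, 78.9 and 94.5 CPM in Zeb1_200M. The 3 groups overlapped throughout, and the Zeb1_200H libraries alone spanned nearly the whole range. The log2 fold change was -0.12 in Zeb1_200M (95% interval -0.50 to 0.26, edgeR adjusted p = 0.688) and -0.24 in Zeb1_200H (95% interval -0.85 to 0.37, edgeR adjusted p = 0.655). In older pituitary its level was 80.86, 43.0, 35.4 and 70.5 CPM in WT, 28.5, 100.3, 65.2 and 46.2 CPM in Zeb1_200H and 112, 80.92 and 81.4 CPM in Zeb1_200M. The lowest Zeb1_200M library thus stood just above the highest WT library, while Zeb1_200H spanned both groups. The older Zeb1_200M difference was 0.67 on the log2 scale (95% interval 0.15 to 1.198) and missed the threshold (edgeR adjusted p = 0.0673). With raw library totals it was 0.85 (edgeR adjusted p = 0.0200), and it also passed without WT replicate 1 or without WT replicate 4 (lowest adjusted p = 0.0198). In older Zeb1_200H it was 0.06 (95% interval -0.67 to 0.79, edgeR adjusted p = 0.932).

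Gnrhr, the receptor that brings the GnRH signal into these cells, was not called either. Its level in young pituitary was 167, 211 and 146 CPM in WT, 243, 181, 199 and 181 CPM in Zeb1_200H and 186, 233, 191 and 197 CPM in Zeb1_200M. In older pituitary it was 88.3, 53.3, 49.2 and 75.4 CPM in WT, 70.5, 100.4, 74.3 and 88.8 CPM in Zeb1_200H and 74.9, 88.5 and 66.3 CPM in Zeb1_200M. The groups overlapped in both cohorts. Against WT, Gnrhr in Zeb1_200M had a log2 fold change of 0.20 in young (95% interval -0.03 to 0.44, edgeR adjusted p = 0.223) and 0.21 in older mice (95% interval -0.19 to 0.61, edgeR adjusted p = 0.454). That of Zeb1_200H was 0.19 (95% interval -0.08 to 0.47, edgeR adjusted p = 0.372) and 0.33 (95% interval -0.05 to 0.71, edgeR adjusted p = 0.264). Without WT replicate 2, the young Zeb1_200M value rose to 0.37 and passed the threshold (edgeR adjusted p = 0.0105).

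**Figure D2:**
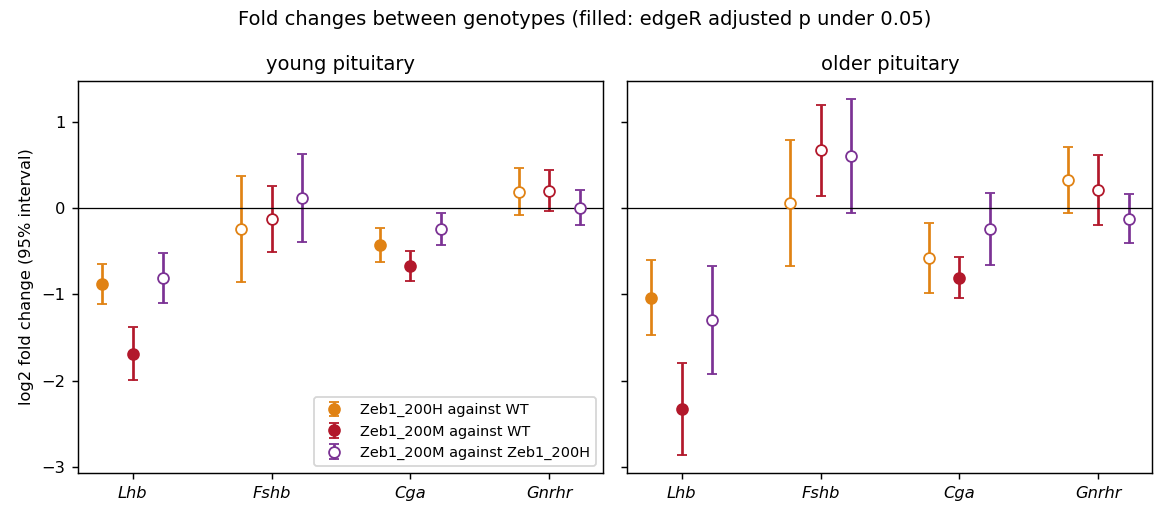
Log2 fold changes of the 4 genes (vertical axis) for the 3 pairs of genotypes in young (left) and older (right) pituitary, with 95% intervals and filled points for an edgeR adjusted p under 0.05. Lhb lies lowest in each comparison with WT, at -1.69 and -2.33 for Zeb1_200M, Cga lies between Lhb and 0, and the Gnrhr intervals against WT include 0.

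The step from 1 to 2 altered alleles was tested by comparing Zeb1_200M with Zeb1_200H directly. None of the 4 genes was called in either cohort by edgeR, where 0.0383% of all genes were called in young and 0.121% in older pituitary. At an unadjusted p under 0.05 in edgeR there were 2 of 4 in young (Lhb and Cga) and 1 of 4 in older mice (Lhb). Over all genes tested, 1081 of 18271 in young and 1575 of 14862 in older pituitary had such a p. DESeq2 called 1 of the 4 genes in young and 0 in older mice. For Lhb the log2 fold change was -0.81 in young (95% interval -1.10 to -0.52, edgeR adjusted p = 0.0637) and -1.30 in older mice (95% interval -1.92 to -0.67, edgeR adjusted p = 0.112). DESeq2 called the young difference (adjusted p = 3.01e-05), as did edgeR with raw library totals (adjusted p = 0.0491) or with all 3 genotypes in one fit (adjusted p = 0.0398). In edgeR it also passed without Zeb1_200H replicate 3 or without Zeb1_200M replicate 2 (lowest adjusted p = 0.00455), and the older difference passed without Zeb1_200H replicate 2 (adjusted p = 0.0367). For Cga the differences were -0.24 in each cohort (edgeR adjusted p = 0.699 and 0.720), with intervals of -0.42 to -0.06 and -0.65 to 0.18. Those of Fshb were 0.12 (95% interval -0.40 to 0.63) and 0.61 (95% interval -0.06 to 1.27), and those of Gnrhr 0.01 (95% interval -0.20 to 0.21) and -0.12 (95% interval -0.41 to 0.16).

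Whether an effect differed between cohorts was tested as an interaction of cohort and genotype. For Zeb1_200M, the log2 fold change of Lhb in older mice minus that in young mice was -0.69 (SE 0.31, edgeR adjusted p = 0.705), and that of Fshb was 0.74 (SE 0.34, edgeR adjusted p = 0.708). Cga differed by -0.19 (95% interval -0.49 to 0.11) and Gnrhr by -0.04 (95% interval -0.55 to 0.46). edgeR called 0 of the 4 genes, with 2 at an unadjusted p under 0.05, DESeq2 called 0, and 0.0273% of all genes were called. For the interactions, the share of all genes at an unadjusted p under 0.05 was not counted. For Zeb1_200H, the differences were between -0.16 and 0.29, with 0 of 4 called by either tool, 0 at an unadjusted p under 0.05 and 0.011% of all genes called.

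Ratios between these genes within a library do not depend on how libraries are scaled. The number of Lhb counts per Fshb count was 1.41 ± 0.41 in young WT, 0.98 ± 0.42 in Zeb1_200H and 0.46 ± 0.11 in Zeb1_200M (SD, n = 3, 4 and 4). In older pituitary it was 5.69 ± 2.69, 2.65 ± 1.34 and 0.62 ± 0.34 (SD, n = 4, 4 and 3). Over 0, 1 and 2 altered alleles the log2 ratio fell by 0.82 per allele in young and by 1.57 in older mice (adjusted exact permutation p = 0.00356 and 0.000779, two-sided, over 12 trends). The test covers the trend over 3 genotypes and not each step. Taken alone, Zeb1_200H differed from WT by -0.57 in young and -1.08 in older mice on the log2 scale (exact permutation p = 0.171 and 0.0857, two-sided, before adjustment).

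Against Cga, Lhb fell in both cohorts, whereas a rise of Fshb passed the trend test in older mice only. Cga itself fell, and Fshb by itself was not called. There were 12.9 ± 0.73 Lhb counts per 100 Cga counts in young WT, 9.57 ± 1.73 in Zeb1_200H and 6.27 ± 0.94 in Zeb1_200M, and 19.8 ± 4.67, 14.2 ± 1.60 and 6.86 ± 3.36 in older mice. The slope of the log2 ratio was -0.53 and -0.80 per allele (adjusted exact permutation p = 0.000779 and 0.000831). In whole pituitary, Lhb mRNA thus fell by more than Cga mRNA. Thyrotropes also make Cga, and the Cga of gonadotropes alone was not measured. Fshb counts per 100 Cga counts went from 9.65 in WT to 11.04 and 14.3 in young mice, a slope of 0.30 that missed the threshold (adjusted exact permutation p = 0.170). They went from 3.90 to 6.30 and 11.2 in older mice, where the slope of 0.77 passed (adjusted exact permutation p = 0.0123).

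Gnrhr rose against both subunits that fell. Gnrhr counts per 100 Cga counts went from 19.1 to 29.3 and 34.9 in young and from 4.54 to 9.21 and 9.33 in older mice, with slopes of 0.43 and 0.55 per allele (adjusted exact permutation p = 0.00104 and 0.0154). Lhb to Gnrhr had slopes of -0.96 and -1.35 (adjusted exact permutation p = 0.000779 in each cohort). The ratio of Fshb to Gnrhr had slopes of -0.13 and 0.22, neither of which passed (adjusted exact permutation p = 0.600 and 0.326). Between pairs of genotypes no ratio passed after adjustment over 36 tests (lowest adjusted exact permutation p = 0.098). A comparison of 3 with 4 libraries cannot give an exact p below 0.0571, nor one of 4 with 4 below 0.0286.

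**Figure D3:**
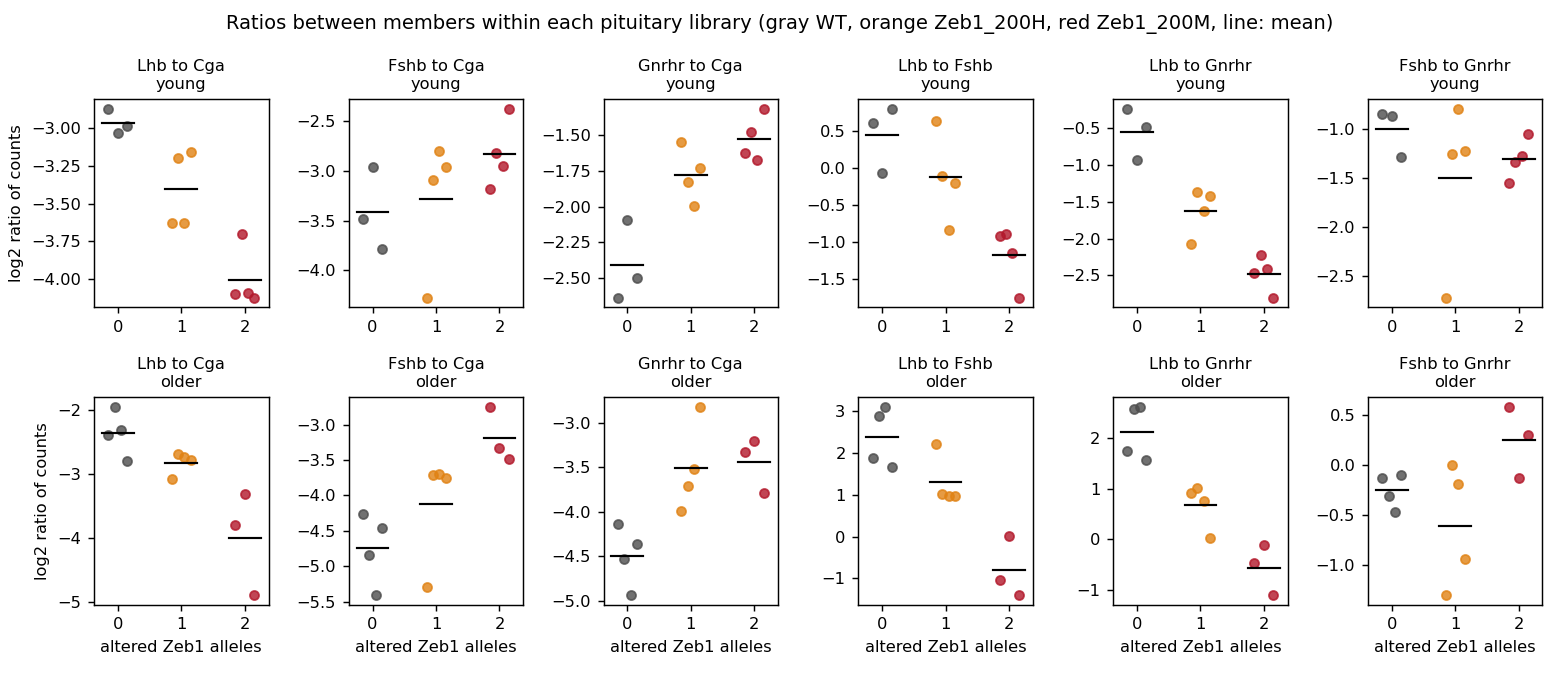
Log2 ratios of counts for the 6 pairs of genes (vertical axis) within each pituitary library against the number of altered Zeb1 alleles, with 1 point per library and a line at the group mean, young above and older below. Lhb falls against Fshb, Cga and Gnrhr in both cohorts, with slopes from -0.53 to -1.57 per allele, while Fshb to Gnrhr has no slope that passed the test.

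Among libraries of 1 genotype, the 4 genes showed little shared variation that could be established. Deviations from the genotype mean of log2 CPM were correlated over 11 libraries in each cohort for 6 pairs, giving 12 relations. The strongest was Fshb with Gnrhr in older mice (r = 0.73, exact permutation p = 0.0396, adjusted 0.476; rho = 0.83, exact permutation p = 0.0318, adjusted 0.382). It remained at r = 0.70 without the 2 libraries farthest from the median of Fshb. In young mice the same pair had r = 0.02 (adjusted exact permutation p = 0.958) and rho = 0.39 (adjusted exact permutation p = 0.932). Lhb with Cga had r = 0.59 and rho = 0.49 in young mice (adjusted exact permutation p = 0.538 and 0.932), and r was 0.28 without its 2 farthest libraries. In older mice r was 0.36 and rho 0.05 (adjusted exact permutation p = 0.776 and 0.990).

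The 3 genes whose level was most like that of each of the 4 were found among 10465 genes whose mean count reached 50, by the lower of the 2 Pearson r over the 11 libraries of each cohort. These libraries share the genotype differences, so r is a description. Lhb was most like Pls1 (r = 0.89 in young, 0.91 in older), which encodes an actin-bundling protein, Gm7967 (0.94 and 0.88) and Spint1 (0.89 and 0.87), which encodes a protease inhibitor of epithelia. Cga was most like Wls (0.92 and 0.88), the carrier that brings Wnt proteins to the cell surface, Mxd4 (0.88 and 0.88), a partner of MAX, and Osbpl2 (0.86 and 0.87), a lipid-binding protein. Gnrhr was most like Tia1 (0.81 and 0.82), which encodes an RNA-binding protein, Wapl (0.80 and 0.87), a cohesin release factor, and Suco (0.80 and 0.79). Fshb had lower likeness throughout, with Ddx58 (0.72 and 0.70), a sensor of viral RNA, Itih5 (0.67 and 0.65) and Igsf9b (0.74 and 0.64). Lhb and Cga had r = 0.91 in young and 0.77 in older mice with each other.

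The genes that act with these 4 in the gonadotrope were counted from lists, some of whose genes stand in more than one list. Of the 16 gonadotrope transcription factors tested in young Zeb1_200M pituitary, 2 rose and 3 fell against WT, and of 15 in older Zeb1_200M, 4 rose and 1 fell (median log2 fold change -0.11 and 0.10, against 0.00 and -0.01 over all genes). In Zeb1_200H, 2 rose and 2 fell of 16 in young, and 3 rose and 2 fell of 15 in older mice. These counts, and those of the lists that follow, stand beside 21.5% and 21.4% of all genes called in young and older Zeb1_200M pituitary (2093 up and 1820 down, 1716 up and 1437 down) and 12.3% and 12.2% in Zeb1_200H (1185 up and 1033 down, 1058 up and 767 down), and a list's share is a description of these genes only. Nr5a1, which encodes the nuclear receptor needed for gonadotrope function, rose by 0.86 in young (SE 0.14, edgeR adjusted p = 0.000342) and by 0.93 in older Zeb1_200M mice (SE 0.13, edgeR adjusted p = 0.000383), the opposite direction to Lhb. Zeb1 itself is on the list, at 0.52 and 0.55. Six6, a homeodomain factor of the developing pituitary, changed by -0.46 and -0.59. Egr1, chosen for mention after its values were seen because it relays the GnRH signal to Lhb, had log2 fold changes of -1.001 (SE 0.60, edgeR adjusted p = 0.278) and -1.92 (SE 0.89, edgeR adjusted p = 0.150).

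Of 8 other genes known from gonadotropes, 2 rose and 3 fell in young and 2 rose and 2 fell in older Zeb1_200M pituitary, where 21.5% and 21.4% of all genes were called. Tgfbr3l, which encodes the inhibin B coreceptor of gonadotropes, fell by 1.48 in young (edgeR adjusted p = 6.69e-08) and by 0.73 in older mice (edgeR adjusted p = 0.00493). Inha, the inhibin alpha subunit, fell by 0.61 and 0.69. The granin genes Chga (0.55 and 0.53) and Scg2 (0.33 and 0.54), which are expressed in many endocrine cells, rose. In Zeb1_200H pituitary, 1 rose and 2 fell in young, and 0 rose and 2 fell in older mice.

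Of 24 genes of GnRH receptor signalling, 7 rose and 2 fell in young Zeb1_200M and 8 rose and 1 fell in older Zeb1_200M pituitary, with medians of 0.06 and 0.09, beside 21.5% and 21.4% of all genes called. The kinase genes Prkcd (0.84 and 1.16), Prkca (0.42 and 0.55) and Camk2d (0.39 and 0.47) rose and Itpr3, a calcium channel of the endoplasmic reticulum, fell (-0.60 and -0.81). In Zeb1_200H the counts were 4 up and 2 down in young, and 3 up and 2 down in older mice. Of 14 early response genes induced by GnRH and by many other stimuli, 0 rose and 7 of 13 tested fell in young Zeb1_200M (median -1.75), where 21.5% of all genes were called. In older Zeb1_200M 1 of 14 was called, Btg2, a growth-arrest gene, which fell (median of the list -1.67). The older count was 0 in DESeq2. The level of Btg2 was 108.7, 319 and 110.8 CPM in young WT and 44.9, 58.4, 48.8 and 122 CPM in young Zeb1_200M, and 90.2, 610, 269 and 108.9 CPM in older WT and 119, 58.8 and 54.8 CPM in older Zeb1_200M. The groups overlapped in both cohorts, and WT replicate 2 stood far above the other WT libraries in each. Btg2 changed by -1.41 in young (edgeR adjusted p = 0.0131) and by -1.78 in older Zeb1_200M mice (edgeR adjusted p = 0.0410). Without WT replicate 2, an alternative chosen after seeing the data, the change of Btg2 was -0.70 and -0.999 and no longer passed in edgeR (adjusted p = 0.108 and 0.106), and the early response list had 5 genes down and 1 up in young mice (median -0.70) and 0 called in older mice (median -0.77). In Zeb1_200H 2 fell in young mice and 0 of 14 were called in older mice, with 1 at an unadjusted p under 0.05 in edgeR, 0 in DESeq2 and a median of 0.05. Over all genes, 3914 of 14922 were at an unadjusted p under 0.05 in older Zeb1_200H pituitary.

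**Figure D4:**
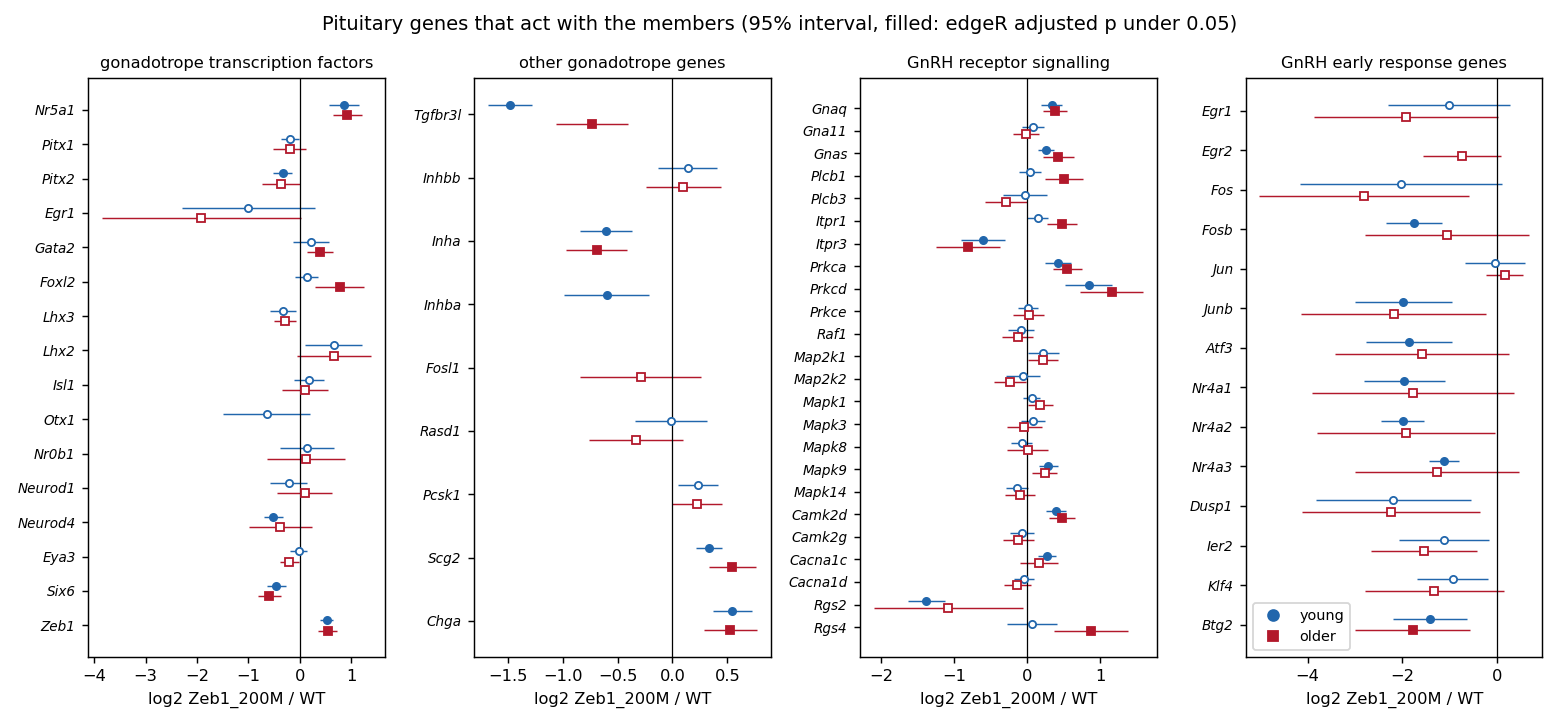
Log2 fold change of Zeb1_200M against WT (horizontal axis, 95% interval) for each tested gene of 4 lists, young (blue circles) and older (red squares), filled where the edgeR adjusted p was under 0.05. The early response genes lie mostly left of 0, with medians of -1.75 and -1.67 (-0.70 and -0.77 without WT replicate 2), whereas the signalling genes centre near 0, with medians of 0.06 and 0.09.

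Of 16 genes of activin, inhibin and steroid feedback, the main drive and brake of Fshb, 4 rose and 5 fell in young and 3 rose and 2 fell in older Zeb1_200M pituitary, beside 21.5% and 21.4% of all genes called. Nr3c1, the glucocorticoid receptor (0.62 and 0.80), Tgfbr3, the betaglycan coreceptor of inhibin (0.57 and 0.49), and Bmpr2, a BMP receptor (0.23 and 0.46), rose. Smad3, which carries the activin signal to the nucleus, fell by 0.41 and 0.37. Of the genes of thyrotropin, the other hormone built on Cga, 2 of 4 rose in young and 2 of 3 in older Zeb1_200M mice, namely Trhr (1.13 and 1.42), the receptor for thyrotropin-releasing hormone, and Dio2 (0.61 and 0.70), which activates thyroid hormone. Tshb, the thyrotropin beta subunit, was not called, at 0.34 (edgeR adjusted p = 0.0551) and 0.13 (edgeR adjusted p = 0.458). Cga thus fell in pituitaries in which no fall of Tshb was called.

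Among the receptors and G-protein pathway through which LH and FSH act, 4 of 6 genes rose in young and 3 of 5 in older Zeb1_200M pituitary, Prkar2b (0.84 and 1.01), Adcy3 (0.92 and 0.78) and Gnas (0.25 and 0.42) in both, beside 21.5% and 21.4% of all genes called. These genes serve cyclic AMP signalling in many cells. Of the hypothalamic GnRH control genes that could be tested in pituitary, 2 of 8 rose and 2 fell in young and 2 of 6 rose in older Zeb1_200M, with Pdyn, the prodynorphin gene, up in both (0.69 and 0.83).

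Markers of other pituitary cell types were counted in the same way, beside 21.5% and 21.4% of all genes called in young and older Zeb1_200M pituitary. Of 6 lactotrope and somatotrope markers 1 rose and 3 fell in young and 1 fell in older Zeb1_200M pituitary, Prl by 1.61 and 1.67 on the log2 scale. Their summed level was 159295 to 183095 CPM in young WT, 64811 to 87291 in Zeb1_200M and 69283 to 98068 in Zeb1_200H. In older mice it was 276018 to 319458, 138718 to 183199 and 141953 to 222808 CPM. Gh, the growth hormone gene, was at 0.10 (edgeR adjusted p = 0.559) and 0.00 (edgeR adjusted p = 0.993) in Zeb1_200M. Of 6 corticotrope and melanotrope markers 2 rose in young and 4 in older Zeb1_200M, Crhr1, the receptor for corticotropin-releasing hormone, in both (1.09 and 0.71). Pomc, which encodes the precursor of corticotropin, was at 0.01 in young and rose by 1.02 in older mice (edgeR adjusted p = 0.00469). The summed level of this list was 985 to 1365 CPM in young WT and 1089 to 1541 in young Zeb1_200M, and 9078 to 12515 and 11759 to 24963 CPM in older mice. In Zeb1_200H it was 1170 to 1353 CPM in young and 3952 to 10941 CPM in older mice. Of 6 stem cell and pituicyte markers 1 and 2 rose, with summed levels of 105 to 120.1 and 118 to 138 CPM in young and 191 to 286 and 232 to 260 CPM in older WT and Zeb1_200M. Of 8 endothelial, blood and macrophage markers 1 rose in each cohort, at 203 to 254 and 244 to 270.4 CPM in young and 241 to 346 and 303 to 461 CPM in older mice. No marker of these 4 lists was at 0 in all libraries of a pituitary group. The part of cell composition in the changes of Lhb and Cga was not tested.

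Outside the pituitary the 4 genes were far lower, and the highest level in any library was 19.3 CPM. A library with a count of 0 allows up to 3 counts, or 0.58 to 0.90 CPM in young hypothalamus and 0.20 to 0.47 CPM in the older hypothalamus and all ovary libraries, for counting error only. In young hypothalamus, Cga reached 19.3 CPM with a median of 6.34, and Lhb, Fshb and Gnrhr stayed at or below 1.81, 0.87 and 1.51 CPM. In older hypothalamus the highest Cga level was 11.2 CPM and those of the others 2.43, 0.47 and 0.56. For Zeb1_200M against WT, 1 of the 4 genes could be tested in each cohort and 0 were called by edgeR, where 0.02% of all genes were called in young and 0.00622% in older hypothalamus. With DESeq2 the study reports many more changed genes in older Zeb1_200M hypothalamus, so the share called there depends on the tool. At an unadjusted p under 0.05 in edgeR there were 1 in young and 0 in older hypothalamus, beside 847 of 14988 and 2904 of 16067 of all genes tested. The tested gene was Cga, at 1.24 on the log2 scale in young (edgeR adjusted p = 0.811) and at 0.19 in older mice (edgeR adjusted p = 0.938). Its highest library, young Zeb1_200M replicate 1, also held 19.6 CPM of Tshb with 0.28 CPM of Prl. Tshb, at 0 to 0.64 CPM in young WT and 3.36 to 19.6 CPM in young Zeb1_200M hypothalamus, was called there (log2 fold change 4.81, edgeR adjusted p = 0.00642). Prl, which like Tshb is a hormone gene of the pituitary, went the other way in young hypothalamus, at 4.22 to 24.5 CPM in WT, 0 to 5.51 in Zeb1_200H and 0.28 to 3.55 in Zeb1_200M, and was called lower in both (log2 fold change -2.85 in Zeb1_200H, edgeR adjusted p = 0.0040, and -2.86 in Zeb1_200M, edgeR adjusted p = 0.00605). In older hypothalamus Gh was at 0 to 0.49 CPM in WT and 6.37 to 7.96 CPM in Zeb1_200M, and was the 1 gene called there (log2 fold change 4.98, edgeR adjusted p = 0.00296). The older WT library with 11.2 CPM of Cga held 3.73 CPM of Tshb and 0 of Prl and Gh. The part of adjoining pituitary tissue in these counts was not tested.

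Hypothalamic Gnrh1, the gene of the hormone that Gnrhr receives, was low. In older hypothalamus it had 34, 39, 26 and 41 counts in WT, 25, 27, 16 and 17 in Zeb1_200H and 10, 10 and 14 in Zeb1_200M. The Zeb1_200M libraries lay below all others and the Zeb1_200H libraries overlapped WT. The log2 fold change of Zeb1_200M was -1.69 (SE 0.28) and missed the threshold (edgeR adjusted p = 0.098). No other tool or setting was run for hypothalamus, so this result rests on edgeR alone, in a tissue where the number of calls depends on the tool. In young hypothalamus 3 to 10 counts per library were too few to be tested. Of the hypothalamic control genes, 0 of 11 in young and 0 of 12 in older mice were called in Zeb1_200M by edgeR, with 4 at an unadjusted p under 0.05 in each cohort. Over all genes, 3 of 14988 in young and 1 of 16067 in older hypothalamus were called, with 847 and 2904 at an unadjusted p under 0.05. Kiss1, which encodes the kisspeptin that drives GnRH neurons, had 0 to 5 counts in young hypothalamus and was not analysed in the older one.

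In ovary, where LH and FSH act, Fshb and Cga were close to 0 and Lhb and Gnrhr were low. Fshb had 1 count in all 12 older ovaries together and up to 0.91 CPM in young ones, and Cga stayed at or below 0.52 CPM in both cohorts. Lhb was at 0.57 to 2.35 CPM in young and 0.28 to 8.07 CPM in older ovary, and Gnrhr at 0.84 to 4.42 and 0.13 to 1.04 CPM. In Zeb1_200M against WT, 2 of the 4 genes could be tested in young and 1 in older ovary, and 0 were called by edgeR, with 0 at an unadjusted p under 0.05, where 2.58% and 2.71% of all genes were called. The study reports more changed genes with DESeq2 in Zeb1_200M ovary of both cohorts. Neither receptor gene was called. Lhcgr, the LH receptor, was at 1659 to 2546 CPM in young WT and 1105 to 3009 CPM in young Zeb1_200M ovary (log2 fold change -0.18, edgeR adjusted p = 0.755). In older ovary it was at 511 to 1376 CPM in WT and 137 to 1101 CPM in Zeb1_200M (log2 fold change -0.32, edgeR adjusted p = 0.792). Fshr, the FSH receptor, was lower than Lhcgr, at 72.7 to 112 CPM in young WT and 65.0 to 93.3 CPM in young Zeb1_200M (log2 fold change -0.17, edgeR adjusted p = 0.547). In older ovary it was at 39.7 to 79.5 CPM in WT and 15.0 to 40.8 CPM in Zeb1_200M (log2 fold change -1.01, SE 0.34, edgeR adjusted p = 0.172). Of the 7 genes of the receptor list, edgeR called 0 in each cohort, with 0 in young and 2 in older ovary at an unadjusted p under 0.05. Over all genes, 3114 of 19250 in young and 2944 of 17792 in older ovary had such a p.

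**Figure D5:**
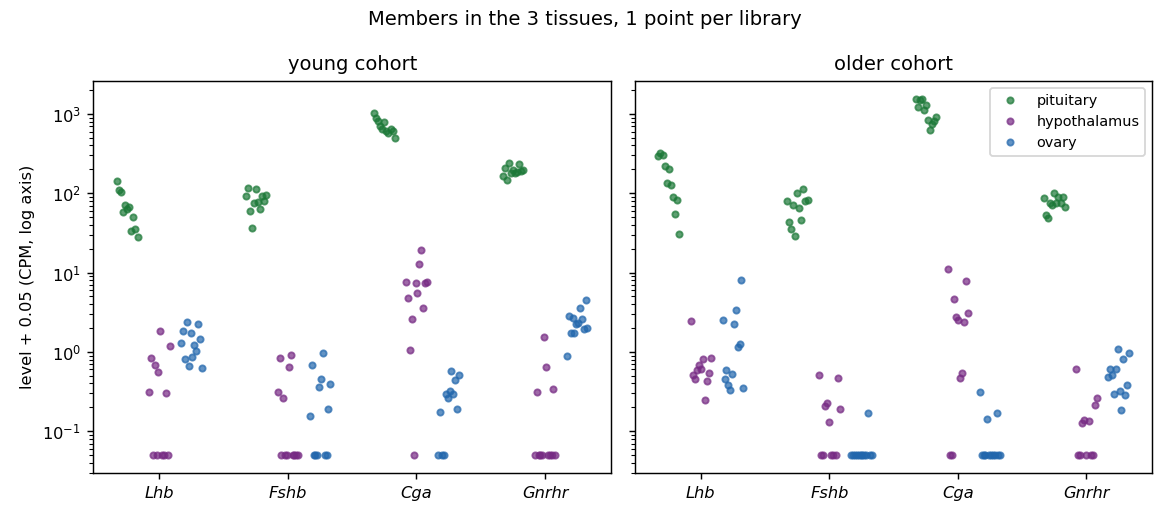
Level of the 4 genes in pituitary, hypothalamus and ovary (CPM plus 0.05, log axis), 1 point per library, young cohort left and older cohort right. Pituitary libraries lie between 28.1 and 1549 CPM, and all hypothalamus and ovary libraries lie at 19.3 CPM or below.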

How the data were processed

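The authors aligned reads with STAR 2.7.1a to mm10 (GRCm38) and deposited raw counts per gene, made with HTSeq 0.9.1 (older pituitary and hypothalamus) or featureCounts, in tables that also hold fold changes and p-values of their own DESeq2 tests, which were not used. Older libraries were poly(A)-selected and unstranded, and young ones rRNA-depleted, stranded and paired-end. 3 count columns that could not be assigned were not used, and 1 young WT pituitary library without a usable number is called replicate u. Groups came from the labels. Nothing in the labels names a batch.

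Genotypes were compared 2 at a time in separate fits with edgeR 4.0.16 (quasi-likelihood F test, TMM, filterByExpr, R 4.3.3, limma 3.58.1), with Benjamini-Hochberg adjustment over all genes tested and a threshold of 0.05. Script steps were tested on simulated data. CPM is the count per 1e+06 after TMM scaling over a tissue and cohort. Ratios added 0.5 to each count and were tested over all arrangements of genotypes. Alternatives were run for pituitary only, so hypothalamus and ovary results rest on the main edgeR fits. They were DESeq2 1.42.0, its size factors in edgeR, raw totals, no filter, 1 fit of 3 genotypes and a replicate block. Another added count of 1 and each library left out were also run. The 4 genes and the 12 lists (127 genes) were chosen with earlier results of these data known. Named list genes are up to 4 per list called the same way in Zeb1_200M pituitary of both cohorts, those with the largest mean change, and Gnrh1, Kiss1, Lhcgr, Fshr, Tshb, Prl, Gh and Pomc. Promoters, miRNAs and start sites are those of RefSeq (GRCm38.p6), and all 4 promoters were matched.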

Additional observations from a re-analysis of the deposited data

Results flagged for a closer look

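A library was listed when, in a group of 4, its gap to the nearest other library exceeded the 95% critical value of Dixon's test for the group's range. This held in 16 of 81 groups, of which chance alone flags about 1 in 20, and most of the 16 are tissues in which the gene is at 0 to a few counts.

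In pituitary, Cga in older WT replicate 2 stood at 1232 CPM, below 1511 to 1549 CPM in the others. The log2 ratio of Lhb to Cga in young Zeb1_200M replicate 2 was -3.70, against -4.12 to -4.10. In older Zeb1_200H replicate 1 the log2 ratio of Fshb to Cga was -5.30, against -3.76 to -3.70, and that of Lhb to Fshb was 2.22, against 0.96 to 1.02, this library having the lowest Fshb level of its group.

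In hypothalamus, Lhb (2.43 CPM, others 0.41 to 0.55) and Gnrhr (0.56 CPM, others 0 to 0.08) stood out in older WT replicate 1, which was also the older library with the most Cga. In young hypothalamus, Gnrhr was at 0.26 CPM in WT replicate 2 and at 0.29 CPM in Zeb1_200M replicate 3, and at 0 in the others of those groups.

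In older ovary, Lhb was at 8.07 CPM in Zeb1_200M replicate 3 (others 0.30 to 1.199) and at 2.45 CPM in WT replicate 1 (others 0.33 to 0.55). Single libraries held Fshb at 0.12 CPM (Zeb1_200M replicate 2) and Cga at 0.26 (WT replicate 1), 0.092 (Zeb1_200H replicate 1) and 0.12 CPM (Zeb1_200M replicate 2). In young ovary, WT replicate 2 stood at 0.63 CPM for Fshb and 0.13 CPM for Cga. Each of these is 1 library, and no cause was tested.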

How the results depend on the processing

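The falls of Lhb against WT in both genotypes and cohorts, the fall of Cga in Zeb1_200M in both cohorts and the 12 ratio trends kept their direction and side of the threshold under every alternative run. Fshb, Gnrhr, Cga in Zeb1_200H and the Zeb1_200M to Zeb1_200H step did not, and the cause was not tested. Without the filter on low counts, edgeR passed Gnrhr in young Zeb1_200M (0.24) and older Zeb1_200H (0.33), Cga in older Zeb1_200H (-0.58), Lhb in Zeb1_200M against Zeb1_200H (-0.80 young, -1.31 older), Fshb in older Zeb1_200M (0.66) and against Zeb1_200H (0.59), and the cohort difference of the Zeb1_200M effect for Fshb (0.68) and Lhb (-0.73). DESeq2 passed Lhb in young Zeb1_200M against Zeb1_200H (-0.81) and Cga in older Zeb1_200H (-0.58), as did all 3 genotypes in one fit (-0.81 and -0.58). Raw library totals passed Lhb in young Zeb1_200M against Zeb1_200H (-0.81) and Fshb in older Zeb1_200M (0.85), and Cga in young Zeb1_200H no longer passed (-0.30). The cohort difference of Gnrhr in Zeb1_200M changed sign with DESeq2 (0.0029) and raw totals (0.065).

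The deviations of 18 same-numbered pituitary pairs had r from -0.53 to 0.22, with 4 over 0.1. Pairs with unlike numbers ran from -0.36 to 0.58. With so few libraries per group, these values cannot show whether same-numbered mice were related or handled together. With the replicate number as a block, Fshb passed in young Zeb1_200M (-0.45), young Zeb1_200H (-0.97) and older Zeb1_200M (0.85), and Lhb in older Zeb1_200M against Zeb1_200H (-1.51). In young pituitary only WT replicates 1 and 2 share a number with mutant libraries. WT replicate u and the mutant replicates 3 and 4 then add nothing to the block estimate against WT, so the young block values rest on few libraries. Genes called in Zeb1_200M against WT went from 3913 to 2638 in young and from 3153 to 3668 in older pituitary under the block.

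With 1 library left out, log2 values ranged as follows. Against WT, Fshb ran from -0.34 to 0.11 (young Zeb1_200M), 0.49 to 0.88 (older Zeb1_200M) and -0.33 to 0.30 (older Zeb1_200H), Gnrhr from 0.091 to 0.37 (young Zeb1_200M), and Cga from -0.50 to -0.34 (young Zeb1_200H) and -0.75 to -0.41 (older Zeb1_200H). In Zeb1_200M against Zeb1_200H, Fshb ran from -0.11 to 0.38 (young) and 0.36 to 1.01 (older), Gnrhr from -0.068 to 0.11 (young), and Lhb from -0.99 to -0.72 (young) and -1.69 to -1.02 (older). The cohort differences ran from -0.21 to 0.13 for Gnrhr in Zeb1_200M, and in Zeb1_200H from -0.10 to 0.55 (Fshb), -0.33 to 0.012 (Cga) and -0.040 to 0.31 (Gnrhr).

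Of the genes of the 12 lists, those called went from 29 to 49 (young Zeb1_200H), from 37 to 57 (older Zeb1_200M) and from 21 to 38 (older Zeb1_200H) without the filter, and from 21 to 33 (older Zeb1_200H) with raw totals. Of all genes, those called in Zeb1_200M against Zeb1_200H went from 7 in young and 18 in older pituitary to 44 and 125 with DESeq2, 130 and 549 without the filter, 12 and 11 in one fit of 3 genotypes and 0 and 20 with the block, and ran from 0 to 26 and from 0 to 407 with 1 library left out. Older Zeb1_200H calls went from 1825 to 2859 with raw totals. With 1 library left out the lowest counts against WT were 1196 (young Zeb1_200H, without WT replicate u), 1159 (older Zeb1_200H, without WT replicate 2) and 1867 (older Zeb1_200M, without Zeb1_200M replicate 3). With 1 library left out, a choice added after seeing the data, the early response genes called in Zeb1_200M ran from 5 to 11 down in young (11 without Zeb1_200M replicate 4) and from 0 to 8 in older mice (8 without WT replicate 4, 5 without WT replicate 1), and Btg2 also lost its call without Zeb1_200M replicate 3 in young and without WT replicate 3 or Zeb1_200M replicate 2 or 3 in older mice. In edgeR, calls were lost for Pdyn in young (without WT replicate 2, 0.45, or Zeb1_200M replicate 3, 0.58) and, in older Zeb1_200M with 1 of its libraries left out, for Smad3 (-0.39 to -0.36), Bmpr2 (0.40 to 0.45), Gnas (0.37 to 0.39) and Itpr3 (-0.81 to -0.72). In hypothalamus and ovary most of the 4 genes had too few counts to be tested, and no alternative was run there.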
